A study of Caenorhabditis elegans with 4 samples.

Results

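Transcripts of 31 splicing genes were followed in *C. elegans* embryos with mutant *meg-1* and depleted *meg-2*. They are the genes that the expression table lists under a name made of *snr*, *prp*, *rsp*, *uaf*, *sap*, *hrp*, *sftb* or *smu*, a hyphen and a number, 31 of the 42048 genes in the table. The rule used names only and no measured value. It took in 7 *snr*, 2 *uaf*, 1 *sap*, 9 *prp*, 2 *smu*, 8 *rsp* and 2 *hrp* genes, and 0 genes listed as *sftb*. Embryos came from N2 adults on L4440 RNAi, the empty-vector control (wild type), and from adults that carried the *meg-1(vr10)* allele and were fed *meg-2* dsRNA (*meg-1 meg-2*, here also called the mutant). Worms of both genotypes were grown at 20 °C, and embryos were harvested from young adults. Each genotype had 2 libraries, the second of which the labels call a biological replicate. *meg-1(vr10)* is carried by the whole animal, whereas *meg-2* was depleted by RNAi, which can leave some transcript. Whole embryos were sequenced, so the few germline blastomeres in which MEG-1 and MEG-2 are found contribute a small part of the RNA, and more cells of a type cannot be told apart from more RNA per cell.

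Introns are removed from pre-mRNA by the spliceosome, which is assembled on each transcript from small nuclear ribonucleoprotein particles (snRNPs) and many further proteins. The Sm proteins form a ring on the snRNAs of most snRNPs, the U2AF and SF3 proteins recognise the 3′ end of the intron, and the proteins named Prp after yeast mutants build the tri-snRNP and the catalytic spliceosome. SR proteins and hnRNP proteins bind exons and introns and influence which splice sites are used. In *C. elegans*, the same machinery also joins spliced leaders to many transcripts, and Sm proteins are known in P granules, the germ granules of the germ lineage.

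The table gives, for each genotype, a mean over both libraries in fpm, which are reads scaled by size factors and library size. The value of each library was recovered from the means, and the libraries are called A and B in each genotype because they could not be matched to the replicate numbers of the labels. The libraries held between 20662429 and 26017429 reads on genes, and each member had between 1262 and 58858 reads in a library. Wild-type libraries held 1933 and 2423 reads of *meg-1*, against 19 and 18 in the mutant, that is 83.2 ± 13.7 fpm against 0.868 ± 0.039 fpm (SD, *n*=2). *meg-2* fell from 22.8 ± 4.50 to 7.40 ± 1.64 fpm (SD, *n*=2) (log2 -1.56 ± 0.19 SE). Both targeted transcripts were thus low in the libraries labelled as mutant, with part of the *meg-2* transcript left.

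All 31 members passed the filter on low values (a mean of at least 1 fpm), as did 12734 of the 42048 genes in all. Their transcripts were slightly more abundant in *meg-1 meg-2* embryos. The fold change was above 0 for 31 of 31 members and ranged from 0.00 to 0.49 (log2), with a median of 0.31, a median rise of 23.4% in fpm. The median of all 12734 genes tested was 0.01. Fold changes and tests are from limma on log2(fpm + 0.5) over all genes tested, with Benjamini-Hochberg adjustment, and "rose" and "fell" are used only for genes with an adjusted *P*-value below 0.05.

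By this test 13 of 31 members rose, 41.9% of them. Of all genes tested, 1760 (13.8%) rose and 998 (7.84%) fell. The members that rose did so by 25.3% to 40.23% in fpm (0.33 to 0.49 on the log2 scale, SE between 0.12 and 0.14), with adjusted *P*-values from 0.0027 to 0.0441. 0 of 31 members fell with limma, edgeR or DESeq2, and 0 had a value below 0 with an unadjusted *P*-value below 0.05 in any of these fits. A second criterion, at least 1.5-fold change with an unadjusted *P*-value below 0.05, was met by 0 members, against 704 genes higher (5.53%) and 397 lower (3.12%) among all genes tested. An unadjusted *P*-value below 0.05 alone was reached by 20 members and by 4557 of the 12734 genes tested. Among the 4097 genes with a mean of at least 50 fpm, 1839 reached it.

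**Figure D1:**
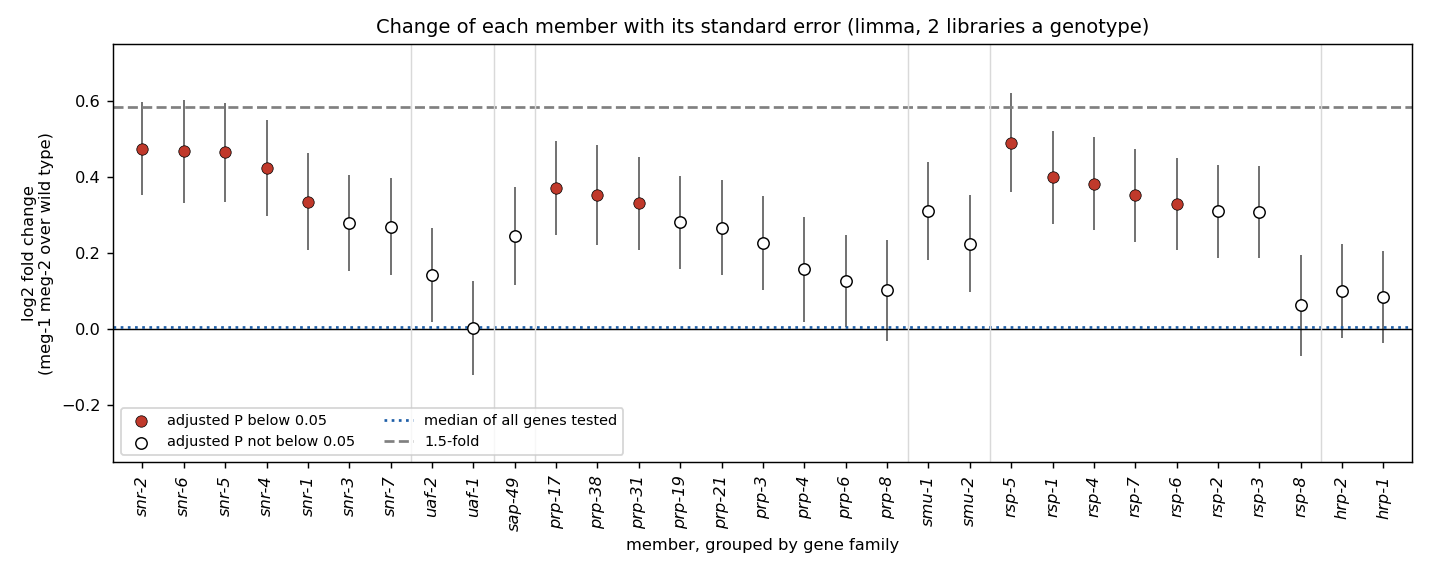
Change of each of the 31 members between genotypes, grouped by family (x axis) and given as the log2 ratio of mutant to wild type (y axis). Points are limma estimates from 2 libraries a genotype, bars are 1 SE, filled points are the 13 members with an adjusted *P*-value below 0.05, the dotted line is the median of all genes tested and the dashed line marks 1.5-fold; all points lie between 0.00 and 0.49.

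Abundant genes as a class were shifted in the same direction, so the members were also set beside genes at a similar level. All 31 members had a mean of at least 50 fpm, a level chosen after the values were seen. Of the 4097 genes at or above this level, 848 (20.7%) rose and 377 (9.2%) fell, and their median fold change was 0.12 (log2). 26 of 31 members lay above this median and 30 of 31 above the median of all genes tested. The 31 members took up 0.787% and 0.870% of all fpm in wild type A and B, against 0.927% and 0.912% in the mutant.

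**Figure D2:**
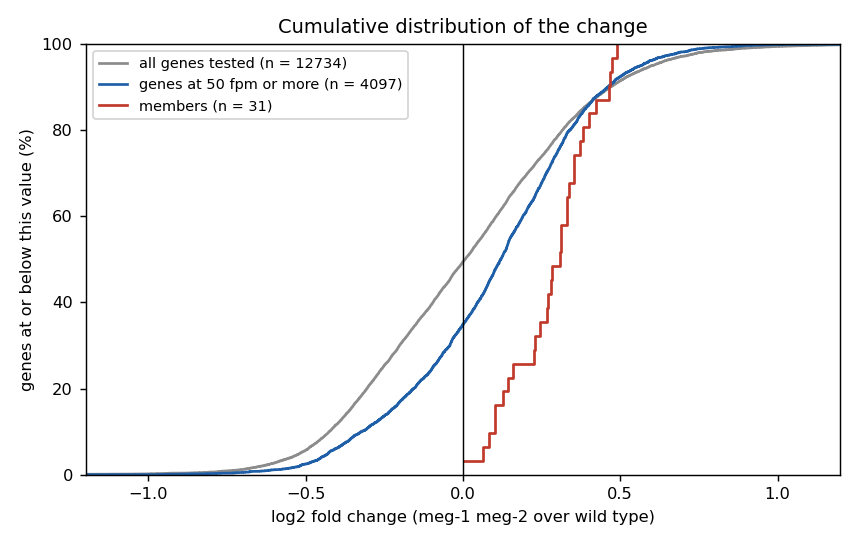
Cumulative share of genes (y axis, %) at or below each log2 ratio of mutant to wild type (x axis), for the 12734 genes tested, the 4097 genes at 50 fpm or more and the 31 members. The curve of the members starts at 0.00, ends at 0.49 and is steepest around its median of 0.31, to the right of the medians of the other curves (0.01 and 0.12), while both wider sets extend to larger changes in either direction.

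Of the 7 *snr* genes, which encode Sm proteins, 5 rose, and the median fold change of the family was 0.42 (log2). *snr-2*, which encodes the homolog of SmB, had 199.8 and 253 fpm in wild type A and B, against 304 and 322 fpm in mutant A and B. Wild type A was the lowest library and both mutant libraries lay above both wild-type libraries, a rise of 38.2% (log2 0.47 ± 0.12 SE, adjusted *P*=0.0027). *snr-6* (SmE) had 53.7 and 68.0 fpm in wild type against 84.2 and 83.3 fpm in the mutant. Its mutant libraries differed from each other by far less than the wild-type libraries did, and the groups did not overlap (log2 0.47, adjusted *P*=0.0079). *snr-5* (SmF) went from 70.6 and 83.9 fpm to 106 and 106 fpm, again without overlap (log2 0.47, adjusted *P*=0.0061). The remaining members of the ring that rose are SmD proteins. *snr-4* had 94.2 and 108 fpm in wild type against 136 and 135 fpm in the mutant (log2 0.42, adjusted *P*=0.0106). *snr-1* had 103.7 and 123 fpm against 137 and 149 fpm, closer to the threshold (log2 0.34, adjusted *P*=0.0441). For both genes the mutant libraries were the highest.

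*snr-3*, the third SmD gene, and *snr-7* (SmG) did not pass the test although their libraries were also ordered with wild type A lowest and both mutant libraries highest. *snr-3* had 126 ± 16.6 fpm in wild type against 152 ± 5.60 fpm in the mutant (SD, *n*=2; adjusted *P*=0.0973). *snr-7* had 98.7 ± 9.88 fpm and 119 ± 3.63 fpm (adjusted *P*=0.115). Thus all 7 *snr* genes had both mutant libraries above both wild-type libraries, an order that 35.4% of all genes tested and 49.9% of genes at 50 fpm or more also showed.

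Proteins of the tri-snRNP and of the catalytic spliceosome are encoded by most *prp* genes, and 3 of these 9 genes rose (median log2 fold change 0.27). *prp-17*, whose yeast namesake acts in the second step of splicing, had the largest change in the family, from 158 and 187 fpm in wild type A and B to 229 and 216 fpm in the mutant (log2 0.37 ± 0.12 SE, adjusted *P*=0.0212). *prp-38*, named after a yeast protein needed to activate the spliceosome, had 75.6 and 92.8 fpm in wild type against 105 and 109 fpm in the mutant (log2 0.35, adjusted *P*=0.0396). In both cases wild type A was the lowest library and the groups did not overlap. *prp-31*, a component of the U4/U6 snRNP, had 199 and 231 fpm in wild type against 269.8 and 271 fpm in the mutant, where the libraries were almost equal (log2 0.33, adjusted *P*=0.0389).

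The other 6 *prp* genes did not pass the test, with fold changes from 0.10 to 0.28 (log2). *prp-19*, the ubiquitin ligase of the complex that bears its name, had 261 ± 33.5 fpm in wild type against 316 ± 1.79 fpm in the mutant (adjusted *P*=0.0821). *prp-21*, an SF3a subunit, had an adjusted *P*-value of 0.108, and the tri-snRNP genes *prp-3*, *prp-4* and *prp-6* had 0.172, 0.418 and 0.459. *prp-8*, which encodes the large protein at the core of the U5 snRNP and of the active site, was by far the most abundant member in fpm, with 1918 and 2257 fpm in wild type against 2275 and 2192 fpm in the mutant. Its wild-type library B lay between the mutant libraries, so the groups overlapped (log2 0.10 ± 0.13 SE, adjusted *P*=0.602). The value for *prp-8* was -0.02 without wild-type library A and -0.08 after quantile normalization, so it has no stable direction.

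The genes for recognition of the 3′ splice site and the branch region did not pass the test. *uaf-2*, the small U2AF subunit, had 138 and 153 fpm in wild type against 162 and 159 fpm in the mutant, with no overlap but a small difference (log2 0.14, adjusted *P*=0.418). *uaf-1*, the large subunit that binds the polypyrimidine tract, had 146 and 161 fpm against 153 and 155 fpm, with both mutant libraries inside the wild-type range (log2 0.00 ± 0.12 SE, adjusted *P*=0.987), and its sign turned under several scalings. *sap-49*, an SF3b subunit, had 88.8 and 108 fpm in wild type against 113 and 119 fpm in the mutant (log2 0.25 ± 0.13 SE, adjusted *P*=0.156). Of these 3 genes, *sap-49* and *uaf-2* had the mutant libraries highest, as did 49.9% of genes at 50 fpm or more.

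*smu-1* and *smu-2* encode spliceosomal proteins known in the worm for the choice of alternative exons of *unc-52*. *smu-1* had 82.3 and 97.9 fpm in wild type against 113 and 109.8 fpm in the mutant (log2 0.31 ± 0.13 SE, adjusted *P*=0.0695). *smu-2* had 108 and 132 fpm against 135 and 144 fpm (log2 0.22 ± 0.13 SE, adjusted *P*=0.190). Both genes had the mutant libraries above the wild-type libraries, as did 49.9% of genes at 50 fpm or more, and neither passed the test.

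SR protein transcripts rose in 5 of 8 cases (median log2 fold change 0.34). *rsp-5* had the largest change of all members, from 72.5 and 86.4 fpm in wild type to 114 and 109 fpm in the mutant (40.23%, log2 0.49 ± 0.13 SE, adjusted *P*=0.0036). *rsp-1* went from 225 and 248 fpm to 305 and 319 fpm (log2 0.40, adjusted *P*=0.0114). *rsp-4*, the homolog of SC35, went from 194 and 226 fpm to 267 and 279.7 fpm (log2 0.38, adjusted *P*=0.0165). In all 3 genes the lowest mutant library was above the highest wild-type library. *rsp-7* had 169 and 192 fpm in wild type against 231 and 229 fpm in the mutant (log2 0.35, adjusted *P*=0.0283). *rsp-6*, the homolog of SRp20, had 196 and 231 fpm against 265 and 269.6 fpm (log2 0.33, adjusted *P*=0.0402). The libraries of these genes, too, did not overlap, and wild type A was lowest.

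*rsp-2* and *rsp-3* fell just outside the threshold. *rsp-3*, the homolog of the classical SR protein SF2/ASF and required for embryonic development, had 454 and 533 fpm in wild type against 603 and 615 fpm in the mutant (log2 0.31 ± 0.12 SE, adjusted *P*=0.0547). *rsp-2* had 325 ± 50.4 fpm in wild type against 401 ± 16.5 fpm in the mutant (SD, *n*=2; adjusted *P*=0.0537), next to *snr-1* on the other side of the threshold (adjusted *P*=0.0441). *rsp-8*, which resembles the splicing regulator Tra2, was the *rsp* gene whose libraries overlapped, with 72.5 ± 6.22 fpm in wild type and 75.7 ± 3.70 fpm in the mutant (log2 0.06 ± 0.13 SE, adjusted *P*=0.760). Its value was -0.03 after quantile normalization.

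The hnRNP genes were abundant and did not pass the test. *hrp-1*, the homolog of hnRNP A1, had 516 and 572 fpm in wild type against 575 and 577 fpm in the mutant (log2 0.08 ± 0.12 SE, adjusted *P*=0.643). *hrp-2*, related to hnRNP R and Q, had 752 and 863 fpm against 856 and 872 fpm (log2 0.10 ± 0.12 SE, adjusted *P*=0.576). Wild type A was the lowest library for both genes, and for *hrp-2* wild type B lay between the mutant libraries. Whether the families differ from each other in their change was not tested.

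To compare levels between genes, fpm were divided by gene length in kb (FPKM). In wild type, *rsp-3* had the highest level per length of the members at 635 ± 71.8 FPKM (SD, *n*=2), followed by *hrp-1* at 521 ± 37.8, *snr-2* at 471 ± 78.01, *hrp-2* at 440 ± 42.7 and *snr-7* at 422 ± 42.2 FPKM. The libraries of neighbouring genes among the last 4 overlapped. *prp-8*, first in fpm, had only 299 ± 34.3 FPKM because its gene length is 6990 bp. *prp-4* was lowest at 37.3 ± 3.87 FPKM, so levels per length spanned 17.03-fold. The Sm genes, whose products assemble into a ring together, spanned 2.11-fold (223 to 471 FPKM), while the *prp* genes spanned 8.02-fold and the *rsp* genes 8.14-fold. The highest level in the *uaf* genes was *uaf-2* at 170 ± 12.2 FPKM and in the *smu* genes *smu-2* at 72.9 ± 10.4 FPKM. Across the 31 members the log2 fold change had Spearman's rho of 0.25 with the level per length but -0.22 with the level in fpm. Both are descriptions over genes that share the same libraries.

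**Figure D3:**
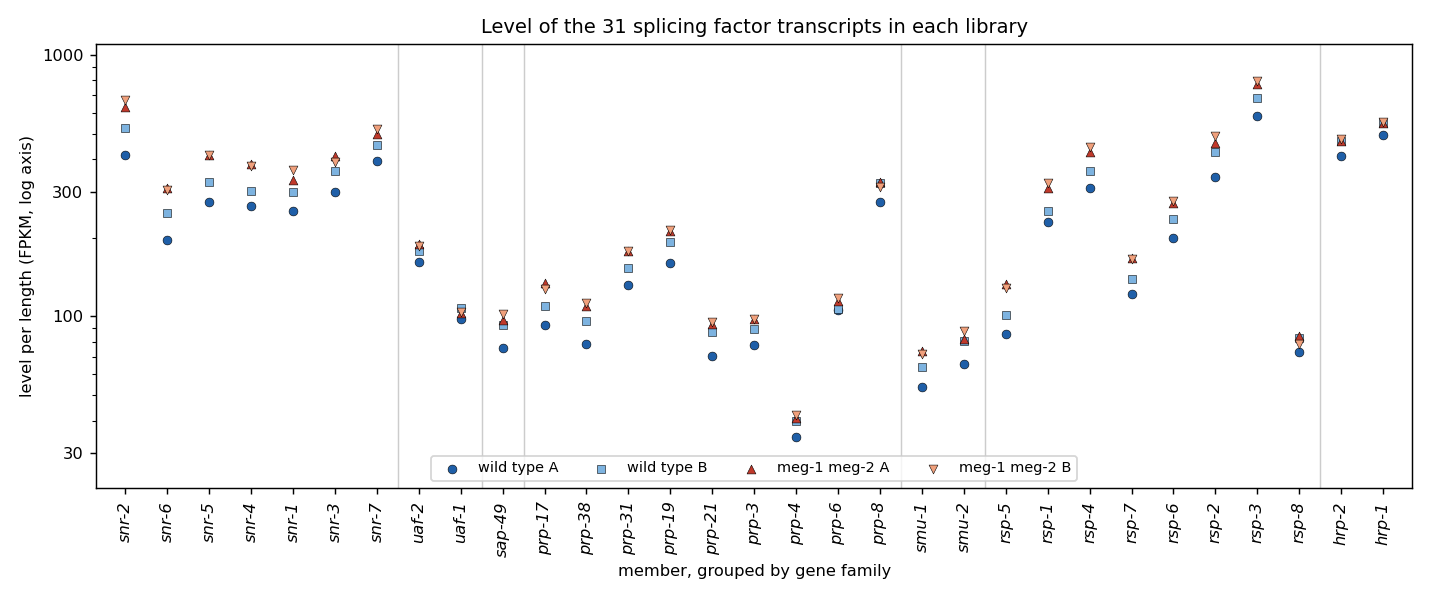
Level per length of each of the 31 members in each of the 4 libraries (y axis, FPKM on a log axis), grouped by family (x axis). Each point is 1 library. In 27 of 31 members both *meg-1 meg-2* libraries (triangles) lie above both wild-type libraries (circle and square). The same order held in 35.4% of all genes tested and 49.9% of those at 50 fpm or more. Wild type A (circle) is below wild type B (square) in all 31 members.

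The order of the libraries was similar in most members. Both *meg-1 meg-2* libraries lay above both wild-type libraries in 27 of 31 members. This order was shown by 35.4% of all genes tested and 49.9% of genes at 50 fpm or more. The exceptions among the members were *uaf-1*, *prp-8*, *rsp-8* and *hrp-2*. Wild type B was above wild type A in 31 of 31 members, by a median of 0.24 (log2, range 0.02 to 0.34), in 7681 of the 12734 genes tested (median 0.10) and in 3382 of the 4097 genes at 50 fpm or more (median 0.18). The mutant libraries were close to each other, with B above A in 20 of 31 members and a median difference of 0.01. As a result the mutant libraries exceeded wild type A by medians of 0.41 and 0.43 and wild type B by medians of 0.15 and 0.19 (log2). For genes at 50 fpm or more, these medians were 0.21 and 0.21 over wild type A and 0.03 and 0.04 over wild type B. Against wild type B alone, *meg-1 meg-2* A was higher in 29 of 31 members and *meg-1 meg-2* B in 28. The corresponding counts were 6564 and 6517 of the 12734 genes tested, and 2272 and 2337 of the 4097 genes at 50 fpm or more.

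**Figure D4:**
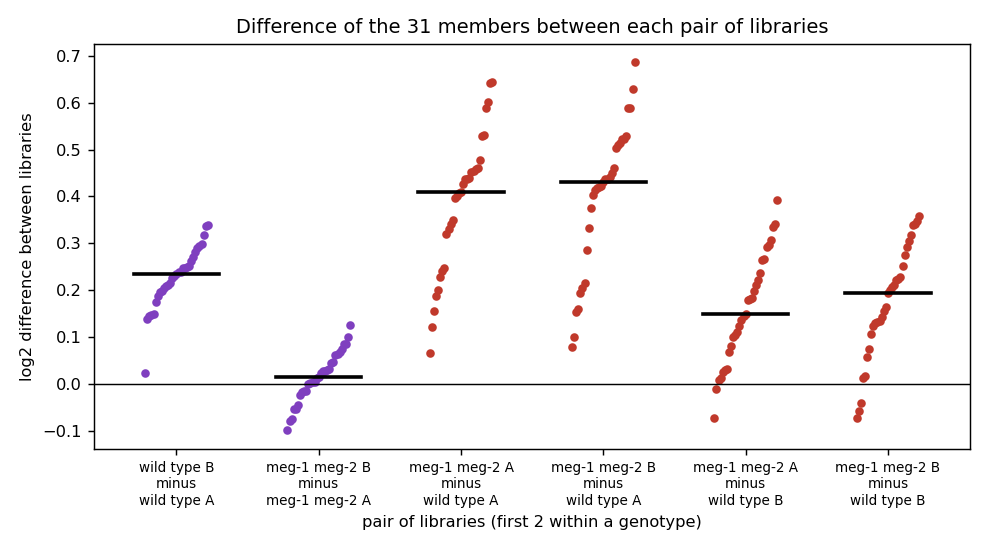
Difference of the 31 members between each pair of libraries (x axis), in log2 units of fpm + 0.5 (y axis), sorted within each pair; black lines are medians. The medians are 0.24 and 0.01 within wild type and within *meg-1 meg-2*, 0.41 and 0.43 for the mutant libraries over wild type A, and 0.15 and 0.19 over wild type B.

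The size of the change and the number of members that passed therefore depended on single libraries. Without wild type A, the median of the members was 0.17. Without wild type B it was 0.42, with *rsp-5*, *snr-2*, *snr-6* and *snr-5* past 1.5-fold. Without *meg-1 meg-2* A or B, when the wide wild-type pair alone sets the spread, 0 of 31 passed by limma (1 and 0 at an unadjusted *P*-value below 0.05), with medians of 0.30 and 0.28. The lone library is assumed in these fits to vary like the pair of the other genotype. In the fits without a wild-type library, all 13 genes that rose with 4 libraries kept a positive value. Read counts analysed with edgeR or DESeq2, fits added after the values were seen, gave 9 and 11 members with an adjusted *P*-value below 0.05, all of them among the 13. With 2 libraries against 2, an exact permutation test of a single gene cannot give a *P*-value below 0.333.

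Transcripts listed as markers of embryonic stage differed between the libraries in parallel. The study concludes that MEG-1 and MEG-2 take part in clearing some maternal mRNAs. The parts of genotype and of stage in the maternal markers were not tested. Of 13 maternal and germline markers such as *oma-1*, *mex-5* and *pos-1*, 13 rose, and their summed level was 1357 and 1725 fpm in wild type A and B, against 2295 and 2304 fpm in mutant A and B. Of 11 early zygotic markers tested (12 listed), 9 rose and 0 fell, with sums of 560 and 688 fpm in wild type against 884 and 903 fpm in the mutant. Both lists thus placed wild type B between wild type A and the mutant libraries, the order seen in 27 of 31 members.

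Markers of late embryonic tissues ran the other way. All 9 late epidermal and cuticle markers tested (10 listed) fell, from sums of 7893 and 7589 fpm to 5534 and 5931 fpm, and 5 of 10 muscle markers fell, from 3970 and 2765 fpm to 2277 and 2318 fpm. Of 7 neuronal markers, 0 passed limma's test in either direction and 2 had an unadjusted *P*-value below 0.05 (sums of 405 and 299.9 fpm against 303 and 294 fpm). For the muscle and neuronal sums, wild type B was nearer to the mutant libraries than to wild type A. Of 6 heat shock genes, 3 rose and the other 3 were at 0 reads in all libraries (sums of 165 and 132 fpm against 231 and 178 fpm). Yolk protein markers summed to between 2.32 and 2.94 fpm, with 1 of 6 tested and 0 called, and sperm markers to between 0.38 and 0.80 fpm, with 5 of 10 at 0 in all libraries. The part of embryonic stage and of tissue makeup in the change of the splicing genes was not tested.

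**Figure D5:**
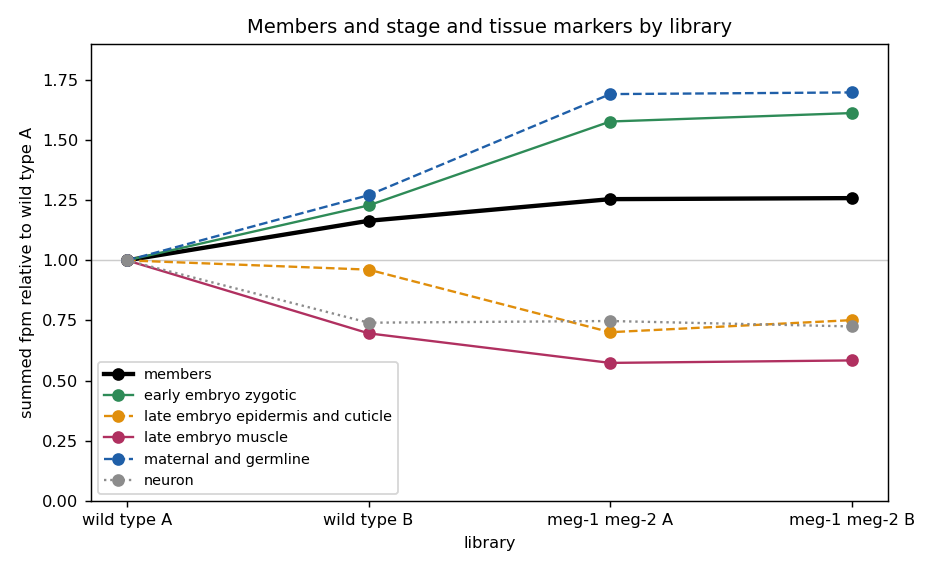
Summed fpm of the 31 members and of lists of stage and tissue markers in each library (x axis), relative to wild type A (y axis, ratio starting at 0); lines only join the points of a list. The members rise to 1.16 in wild type B and to 1.25 and 1.26 in the mutant, maternal and early zygotic markers reach between 1.58 and 1.70 in the mutant, and epidermal, muscle and neuronal markers lie below 1 there.

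Other genes of the splicing pathway, taken from a list of 90, were examined in the same fit. Of 83 that were found in the table, all tested, 25 rose (30.1%) and 4 fell, and 67 had a fold change above 0 with a median of 0.23 (log2). Among all genes tested 13.8% rose and 7.84% fell, and among those at 50 fpm or more 20.7% rose and 9.2% fell. Of the SMN complex, which loads Sm rings onto snRNAs, 2 of 2 genes rose. Of the Prp19 complex and catalytic stage 8 of 15 rose. They were joined by 4 of 8 genes listed with the tri-snRNP, 2 of 4 listed with U1 and U2 snRNPs and 1 of 2 exon junction genes. The 2 listed with U1 and U2 snRNPs were *rnp-3* (log2 0.46) and *snrp-27* (log2 0.50). *snrp-27* is named after a protein of the tri-snRNP. 2 of 5 genes of spliced-leader trans-splicing, 2 of 8 LSM genes and 1 of 8 genes listed with the helicases rose as well. *rsr-2*, an SR-related gene, was counted with the helicases and did not pass limma's test (adjusted *P*=0.171). Differences between these groups were not tested. In limma's test 0 of 2 genes listed as SR-related and 0 of the 4 branch point and SF3 genes of this list passed. The same held at an unadjusted *P*-value below 0.05 by limma. However, further SF3 genes that the table gives under older names include 1 that rose (*sftb-6*).

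The largest rises in this list were those of *sna-1*, a protein of the spliced-leader snRNP, of *lsm-6*, a subunit of the LSM ring on U6 snRNA, and of *smi-1*, a partner of SMN. *sna-1* went from 45.4 ± 3.39 to 76.8 ± 0.527 fpm (SD, *n*=2; log2 0.76 ± 0.14 SE, adjusted *P*=1.55e-05). *lsm-6* went from 16.0 ± 2.85 to 26.3 ± 1.16 fpm (log2 0.71 ± 0.17 SE, adjusted *P*=0.00105). *smi-1* went from 13.9 ± 1.62 to 22.2 ± 1.63 fpm (log2 0.66 ± 0.17 SE, adjusted *P*=0.00315). All 3 exceeded the largest change among the 31 members, 0.49.

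Genes listed as alternative splicing regulators changed in both directions, with 3 of 25 rising (12%), 4 of 25 falling and a median of -0.06 (log2). The share that rose was near the 13.8% of all genes tested, of which 7.84% fell. Those that rose were *rbm-22* (log2 0.43), *rbm-42* (log2 0.42) and *prcc-1* (log2 0.39). The list is broad, and *rbm-22* encodes a core protein of the spliceosome. All 4 falls of the list of 83 were in this group. *sym-2* fell from 75.9 ± 0.699 to 48.5 ± 0.789 fpm (SD, *n*=2; log2 -0.64 ± 0.14 SE, adjusted *P*=0.000231). *exc-7*, an ELAV-type RNA-binding protein expressed in neurons and excretory cells, fell from 27.9 ± 3.95 to 18.7 ± 0.427 fpm (log2 -0.56 ± 0.16 SE, adjusted *P*=0.00871). *asd-2*, a STAR-family regulator, fell from 76.0 ± 3.59 to 54.2 ± 3.78 fpm (log2 -0.49 ± 0.14 SE, adjusted *P*=0.00592), and *ptb-1* also fell (log2 -0.45). In *sym-2*, *exc-7* and *asd-2* both wild-type libraries lay above both mutant libraries.

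A further 9 genes carry family names today but older names in the table, and so were outside the rule. They are *sftb-1*, *sftb-2*, *sftb-6*, *prp-9*, *prp-18*, *prp-39*, *prp-40*, *sap-140* and *hrpa-2*. 8 of 9 had a fold change above 0 with a median of 0.23 (log2), 1 rose (*sftb-6*, log2 0.38, adjusted *P*=0.0330) and 1 fell (*hrpa-2*, log2 -0.59).

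The members are spread over the autosomes, with 7 on chromosome I, 9 on II, 8 on III, 4 on IV and 3 on V of the WBcel235 annotation. Pairs of members lie head to head on chromosome II in 2 places. *snr-3* (chrII:6488830-6489761, minus strand) and *rsp-5* (chrII:6490165-6491340, plus strand) are 403 bp apart, and *rsp-2* (chrII:11451441-11452955, minus strand) and *rsp-1* (chrII:11453362-11455864, plus strand) are 406 bp apart, with no protein-coding start between them. In each pair the gene on the plus strand rose and the other did not pass the test (log2 0.49 and 0.28 for *rsp-5* and *snr-3*, 0.40 and 0.31 for *rsp-1* and *rsp-2*). The difference within a pair was not tested.

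Another protein-coding gene overlaps 9 of the members. The library kit marks strand, but the strand setting of the counting is not given in the sources used here, so reads of overlapping genes may have been split or shared. *snr-6* overlaps *pie-1*, a maternal germline gene on the opposite strand, which rose from 35.3 ± 3.98 to 53.3 ± 1.19 fpm (SD, *n*=2; log2 0.59 ± 0.14 SE, adjusted *P*=0.00154). The change of *snr-6* is therefore uncertain in this respect. Of the 22 members that overlap no other protein-coding gene 9 rose, with a median fold change of 0.27, and of the 9 that do 4 rose, with a median of 0.31.

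The median change was larger in short members than in long ones. Of 16 members with a gene length of up to 1 kb 10 rose, with a median fold change of 0.34 (log2), and of 15 longer members 3 rose, with a median of 0.23. Spearman's rho between gene length and fold change was -0.53 over the 31 members (Pearson's r -0.55 with log2 length), given as a description over genes that share libraries. The same order held for protein-coding genes at 50 fpm or more, with medians of 0.24 up to 1 kb and 0.10 above and a rho of -0.27, and 33.7% and 17.1% of them rose. The part of gene length in the change of the members was not tested.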

How the data were processed

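Total RNA of 4 libraries (2 a genotype) was depleted of rRNA and made into stranded libraries. The authors used HISAT2 to align reads to ce10, HTSeq to count them and DESeq2 to compare genotypes, in versions that are not given in the sources used here. The signal that the authors deposited is the mean fpm of each genotype, and the FPKM they deposited is this mean divided by the length in bp, rescaled here to kb. Columns of log2 fold changes and of adjusted p-values that the authors deposited hold their own comparison and were not used.

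Each mean was resolved into whole reads of 2 libraries (relative tolerance 8e-15), with 1 solution for 100% of wild-type and 99.998% of *meg-1 meg-2* values. Libraries held 20662429 to 26017429 reads; 3 reads, the limit that a count of 0 allows, are 0.114 to 0.149 fpm, for counting error only.

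Genes with a mean of at least 1 fpm were tested with limma (version 3.58.1, R 4.3.3; lmFit and eBayes with trend) on log2(fpm + 0.5) over all 4 libraries, with no block, two-sided, with Benjamini-Hochberg adjustment over 12734 genes. The study compared the same libraries with DESeq2, whose input counts the table does not hold. P-values measure the spread between libraries only. Alternatives were other pseudocounts, filters, scalings and variance models, FPKM, and each library left out. edgeR (version 4.0.16), DESeq2 (version 1.42.0) on the recovered reads, protein-coding genes only and members without overlapping genes were chosen after seeing the data. The limma fit reported, edgeR and DESeq2 were first run on simulated data with the same spread in both genotypes. The other settings were not run on simulated data.

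Members and lists were chosen with earlier results of these data known. Values per library are given for members with an adjusted p-value below 0.05 or past 1.5-fold and, in each family, for the highest level per length and the largest change. In the list of other splicing genes, the 3 largest rises and falls are named. *ptb-1*, *rnp-3*, *snrp-27*, *rsr-2*, *rbm-22*, *rbm-42*, *prcc-1* and the genes of older name were added after their values were seen. Of 90 names, 65 matched by name and 18 by WormBase identifier. Positions are from WBcel235 and nothing was converted from ce10. How reads with several alignments were treated is not given in the sources used here.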

Additional observations from a re-analysis of the deposited data

How the results depend on the processing

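No member fell and 31 of 31 had a positive fold change in the fit reported, and the members' count of rises stayed between 9 and 15 under both other pseudocounts, the filter at 10 fpm, 3 other scalings, robust variances, protein-coding genes only, edgeR and DESeq2, with medians from 0.21 to 0.31. It was 0 without a filter on low values, without the variance trend and with values per length, where 15, 10 and 15 members had an unadjusted p-value below 0.05 by limma. In those fits the number of all genes higher and lower was 3 and 1 without a filter, 654 and 332 without the trend and 11 and 17 per length, and *meg-2* lost its call without a filter (log2 -1.56) and per length (log2 -1.57) but not without the trend. The cause was not tested.

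Leaving out 1 library at a time, genes higher ranged from 27 to 4566 and genes lower from 14 to 3296, genes past 1.5-fold from 441 to 1344 (higher) and 266 to 1320 (lower), and the median of all genes from 0.0062 to 0.038. Members higher ranged from 0 to 29, members past 1.5-fold from 0 to 4 and the members' median from 0.17 to 0.42. *meg-1* ranged from -6.09 to -5.76 and *meg-2* from -1.77 to -1.35.

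Genes past 1.5-fold in the lower direction were 145 with a pseudocount of 2 fpm, 146 with a filter at 10 fpm, 601 scaled by total reads, 647 per length and 761 with edgeR. The median of all genes was -0.036 without a filter, 0.093 at 10 fpm, -0.025 with median-ratio scaling, -0.057 scaled by total reads, -0.066 with edgeR and -0.033 with DESeq2; the cause was not tested.

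3 members changed sign, none of which had passed the test. *uaf-1* was -0.030 with median-ratio scaling, -0.095 with quantile normalization, -0.064 scaled by total reads and with edgeR, -0.031 with DESeq2, -0.0036 without *meg-1 meg-2* B, and from -0.065 (without wild type A) to 0.072 (without wild type B) with 1 library left out. *rsp-8* was -0.034 with quantile normalization, -0.0046 scaled by total reads, -0.0032 with edgeR, and from -0.024 to 0.15 without wild type A or B. *prp-8* was -0.075 with quantile normalization and from -0.015 to 0.22 without wild type A or B.

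No paired analysis was possible because the libraries recovered from the deposited means carry no replicate number, so which wild-type library belongs with which mutant library is not known.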
